A study of Mus musculus with 12 samples.

Results

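The calcium/calmodulin-dependent protein kinase (CaM kinase) genes were examined for c-Fos binding in hippocampal neurons of mice given kainic acid. The set comprised 10 genes chosen by name, Camk2a, Camk2b, Camk2d, Camk2g, Camk4, Camk1, Camk1d, Camk1g, Camkk1 and Camkk2, and all 10 were found among the 21523 protein-coding genes used here. A c-Fos peak was assigned to a gene when its midpoint lay inside the gene or within 100 kb of it. By this rule 8 of the 3294 peaks on assembled chromosomes belonged to the set.

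CaM kinases turn a rise in intracellular calcium into protein phosphorylation. Calcium binds calmodulin, and calcium-loaded calmodulin opens the kinases by displacing an autoinhibitory segment. The kinases encoded by Camk2a, Camk2b, Camk2d and Camk2g (CaMK2) assemble into large holoenzymes that can keep themselves active by autophosphorylation, and the alpha form is abundant at excitatory synapses of the forebrain, where it is required for long-term potentiation. The remaining members form a cascade in which the CaM kinase kinases (Camkk1, Camkk2) switch on CaMKI (Camk1, Camk1d, Camk1g) in the cytoplasm and CaMKIV (Camk4) in the nucleus, and CaMKIV phosphorylates CREB, an activator of Fos transcription. c-Fos itself is a subunit of the AP-1 transcription factor, made transiently after strong neuronal activity.

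The study comprised 12 CUT&RUN samples in 4 groups of 3 replicates, from C57BL/6 mice aged 3 to 4 weeks that carried 1 copy each of CaMK2a-Cre and of LSL-Sun1-GFP, a nuclear envelope tag that Cre switches on. Mice received kainic acid, an agonist of glutamate receptors, or phosphate-buffered saline (PBS), and 2 to 3 h later CA1, a pyramidal cell field of the hippocampus, was dissected and GFP-positive nuclei were sorted. In CUT&RUN an antibody brings a nuclease to its target, and the DNA released there is sequenced; each reaction used 50000 nuclei with either a c-Fos antibody or rabbit IgG as the control. The measurement examined was the position of each peak that the deposited list names as replicated in c-Fos over IgG after kainic acid. The sorted population is defined by past or present activity of Camk2a regulatory sequence in the Cre transgene. The sort was thus meant to leave out nuclei of cells without that activity. A list of peaks holds no expression values, so it does not allow the sorted cell type to be checked against marker genes. The list gives no read values and no values per replicate. Depth is therefore unknown, no test between samples was possible, and every comparison below is a description over genes or peaks. Data of the PBS samples were not used here, so whether a peak was also present after PBS was not tested.

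The first question was how many of the kinase genes lay near a c-Fos peak. A peak was found for 5 of the 10 genes: Camk1d had 3, Camk2d had 2, and Camk2b, Camk2g and Camk4 had 1 each. Having 2 or more peaks, as Camk1d and Camk2d did, was seen for 5.59% of all protein-coding genes. Both genes are long. Among genes of similar length, defined below, 17.6% had at least as many peaks as Camk2d and 14.4% at least as many as Camk1d. Camk2a, Camk1, Camk1g, Camkk1 and Camkk2 had none. The share of 50.0% had an exact (Clopper-Pearson) 95% interval of 18.7 to 81.3%, and 21.8% of all protein-coding genes had a peak by the same rule. The background share lies inside that interval, which is wide because only 10 genes were counted. These genes were chosen by name and not drawn at random, so the interval describes the count and is not a test.

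Gene length accompanied this pattern. The kinase genes had a median length of 62.0 kb, against 17.4 kb for all protein-coding genes, and 7 of the 10 fell in the longest of 5 classes of equal gene number (58.0 kb or more). All 5 genes with a peak belonged to that class. The share of genes with a peak rose with length over these classes, from 13.3% through 17.6, 19.1 and 23.2% to 35.8%. Camk1, Camk1g and Camkk1 fell in the classes with 17.6, 19.1 and 23.2%. The median length was 251 kb for the kinase genes with a peak and 26.0 kb for those without. For each member, the share of genes of similar length (20% shorter to 25% longer) that had a peak was also taken. In every such group of similar length the gene itself is counted. These shares ranged from 18.1% for Camk1 to 57.6% for Camk1d and added up to 3.13 genes, beside the 5 observed. No test was made of this difference.

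**Figure D1:**
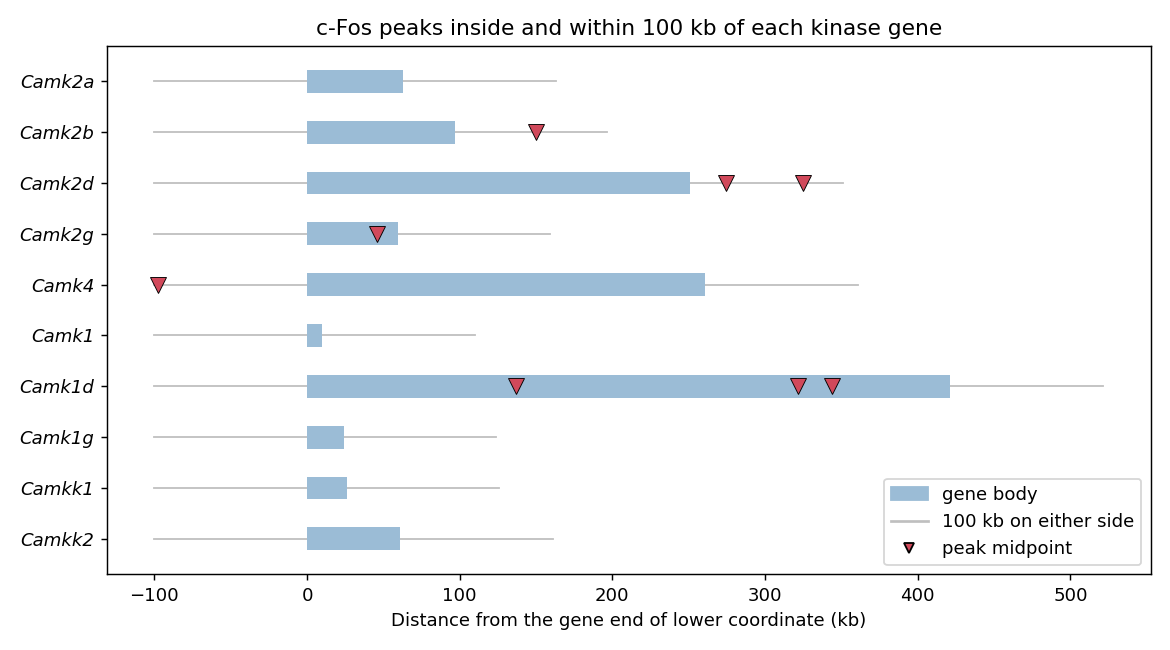
Map of the 10 kinase genes drawn to scale, with the distance in kb from the gene end of lower coordinate on the x axis, gene bodies as blue bars, the 100 kb on either side as grey lines and peak midpoints as red triangles. Of the 8 peaks, 4 sit inside a gene (3 in Camk1d and 1 in Camk2g), and the peak of Camk4 lies close to the limit of its window.

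Camk1d, which encodes the delta form of CaMKI and is the longest gene of the set (421 kb, chr2:5293457-5714860, mm10), held the most peaks. All 3 had their midpoint inside the gene, at chr2:5429412-5430700, chr2:5614290-5615638 and chr2:5636674-5637956. They were 1289, 1349 and 1283 bp wide. The latter pair lay 22.4 kb apart, and the other peak was 185 kb from them, towards the end of lower coordinate. Camk1d was the only protein-coding gene within 100 kb of any of these midpoints. Among all protein-coding genes, 0.465% had 3 or more peaks inside. Among the 257 genes of similar length the share was 10.1%, and 46.7% had at least 1 peak inside.

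RefSeq promoter windows, which run from 250 bases before a transcription start to 50 bases after it, place Camk1d on the minus strand with 2 start sites 38.7 kb apart. Their sequences on GRCm38.p6, the assembly that mm10 represents, are shown because the peaks are placed relative to them, written 5′ to 3′ on the strand of the gene.
Camk1d outer start, chr2:5714713-5715012, minus strand: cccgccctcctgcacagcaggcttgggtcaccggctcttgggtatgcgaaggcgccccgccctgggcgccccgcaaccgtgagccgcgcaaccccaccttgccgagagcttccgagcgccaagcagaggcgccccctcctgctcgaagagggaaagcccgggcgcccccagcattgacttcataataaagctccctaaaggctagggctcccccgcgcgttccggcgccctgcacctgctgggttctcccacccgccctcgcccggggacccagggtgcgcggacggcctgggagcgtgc
Camk1d inner start, chr2:5675997-5676296, minus strand: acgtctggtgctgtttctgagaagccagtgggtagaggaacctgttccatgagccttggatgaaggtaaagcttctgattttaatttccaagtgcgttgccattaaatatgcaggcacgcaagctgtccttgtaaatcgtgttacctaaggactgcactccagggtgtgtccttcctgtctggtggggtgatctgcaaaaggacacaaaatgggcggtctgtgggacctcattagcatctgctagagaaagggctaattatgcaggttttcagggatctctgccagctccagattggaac
No peak overlapped either window. The 3 peaks lay 285, 99.8 and 77.4 kb downstream of the outer start, and 246, 61.1 and 38.7 kb downstream of the inner one. The windows differed in base composition, with 71.3% G and C at the outer start and 48.7% at the inner one, and neither held the letters TGANTCA, the core to which AP-1 binds, or TGACGTCA, the cyclic AMP response element (CRE) to which CREB binds.

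The other kinases of the cascade had fewer peaks or none. Camk4, encoding the nuclear kinase CaMKIV (261 kb, chr18:32934941-33195767), had no peak inside. Its only assigned peak, 1422 bp wide at chr18:32836686-32838107, lay 97.5 kb beyond the end of lower coordinate, just within the 100 kb limit. That midpoint fell inside Wdr36, a gene for a WD-repeat protein of ribosome assembly, and Tslp, a cytokine gene, was also nearer to it than Camk4. Camk1 (9.80 kb, chr6:113334124-113343922) and Camk1g (24.0 kb, chr1:193346346-193370355), the alpha and gamma forms of CaMKI, had their nearest peaks 309 and 266 kb away. The distance at Camk1g was the shortest among the genes without an assigned peak.

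Neither CaM kinase kinase gene had a peak nearby. The nearest to Camkk1 (26.0 kb, chr11:73016043-73042073) was 522 kb away, and the nearest to Camkk2 (61.1 kb, chr5:122718380-122779522) was 393 kb away. These were the longest distances in the set. They are ordinary ones among protein-coding genes: 61.3% of all genes had a peak as close as Camkk1 or closer, and 52.5% as close as Camkk2 or closer.

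Among the CaMK2 genes, 3 of 4 had a peak, in 3 different arrangements. This share of 75.0% (exact interval 19.4 to 99.4%) stands beside 21.8% of all protein-coding genes, which lies inside the interval, and 25.2 to 45.0% of genes of similar length to each of the 4. Camk2g, the gamma form (59.3 kb, chr14:20734873-20794157), held a peak of 1110 bp inside the gene, at chr14:20779969-20781078. Its midpoint was 13.6 kb from the end of higher coordinate and 45.7 kb from the other. The nearest of the 6 further protein-coding genes within 100 kb was Ndst2, an enzyme of heparan sulfate synthesis, at 46.0 kb. A peak inside the gene was found for 7.16% of the 1759 genes of similar length and for 5.52% of all protein-coding genes.

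Camk2d, the delta form (251 kb, chr3:126595487-126846326), had no peak inside but 2 beyond its end of higher coordinate, which is the 3′ side because the promoter table lists the gene on the plus strand. The nearer, at chr3:126869416-126870146, lay 23.5 kb past the gene and was closer to Camk2d than to any other protein-coding gene. With 731 bp it was among the narrowest of the whole list, since 2.64% of peaks were as narrow or narrower. The other, 1249 bp wide at chr3:126919850-126921098, lay 74.1 kb from Camk2d but 1.13 kb from Ank2, which encodes ankyrin-B, a membrane adaptor of the cytoskeleton. Neither midpoint fell in a gene of any type.

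Camk2b, the beta form, which also binds actin (96.7 kb, chr11:5969629-6066357), had 1 peak of 1122 bp at chr11:6118789-6119910. It lay 53.0 kb beyond the end of higher coordinate, on the 5′ side of this minus-strand gene, and inside the neighbouring gene Nudcd3. Camk2a, the alpha form (62.8 kb, chr18:60925307-60988152), had no peak inside or within 100 kb. Its nearest peak, at chr18:60636239-60638177, was 288 kb from the end of lower coordinate. Of the 1701 genes of similar length, 49.0% had a peak as close or closer.

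**Figure D2:**
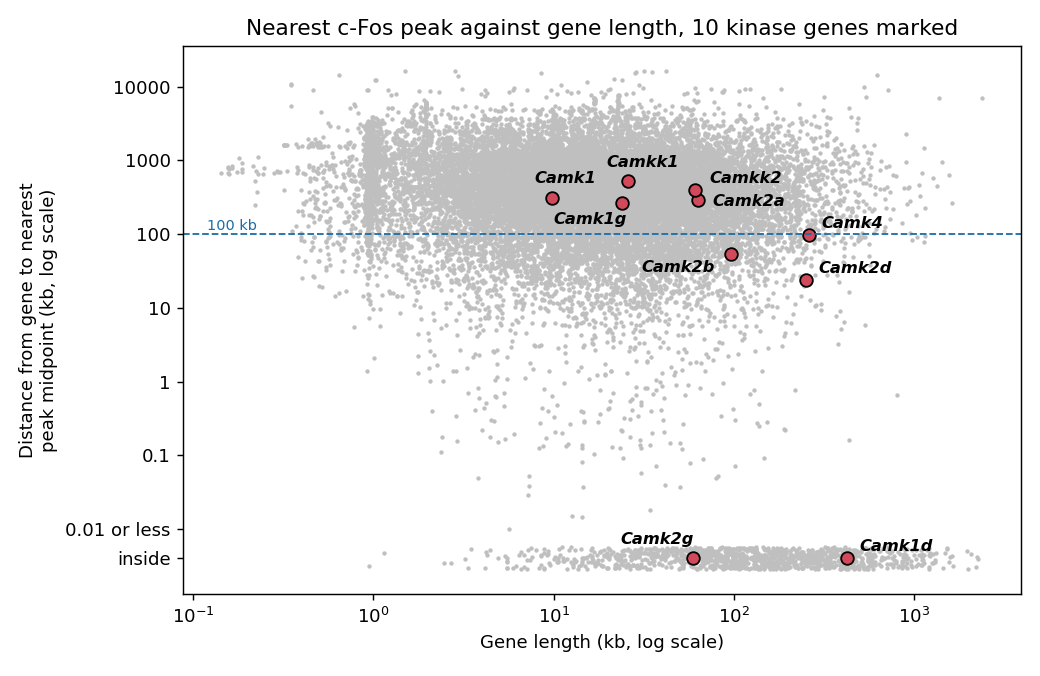
Distance from each protein-coding gene to its nearest c-Fos peak midpoint (y axis, kb, log scale, with genes that hold a peak in the strip marked inside) against gene length (x axis, kb, log scale); grey points are all protein-coding genes, red points the 10 kinase genes, and the dashed line marks 100 kb. Camk1d and Camk2g lie in the strip, Camk2b, Camk2d and Camk4 under the line, and the remaining 5 above it, from 266 to 522 kb, within the cloud of other genes.

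Across the set, the link between peak and gene was thus of unequal strength. A kinase gene was the nearest protein-coding gene for 5 of the 8 peaks: the 3 in Camk1d, the 1 in Camk2g and the nearer one of Camk2d. For the other 3 the nearest genes were Nudcd3, Ank2 and Wdr36. Counting only the nearest gene therefore left 3 of the 10 kinase genes with a peak, while 8.63% of all protein-coding genes had one by that stricter link. These 3 genes belong to the longest length class, and the share by that link among genes of similar length was not taken. Peaks inside the gene were found for 2 of the 10 (20.0%, exact interval 2.52 to 55.6%), against 5.52% of all protein-coding genes and 20.3% of those in the longest length class. Widening the window to 200 kb added no further kinase gene.

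The widths of the 8 peaks ran from 731 to 1422 bp with a median of 1266 bp, against 1341.5 bp for all peaks, and 6 of the 8 were narrower than that median. Width is not a measure of binding strength here. The promoter table listed 8 windows for 7 of the kinase genes; Camk2a, Camk2g and Camk4 had no entry. None of the 8 windows was overlapped by a peak, against 1.03% of the 32851 windows of all genes. None held TGANTCA, which was found in 7.81% of all windows, or TGACGTCA, found in 1.79%. Of the 7 peaks on chromosomes with listed windows, none overlapped the window of any gene. The share of all peaks that overlap a window was not counted. All 3294 peaks together overlapped 338 windows, so peaks without an overlap were the majority of the list. Whether the peaks inside Camk1d and Camk2g are exonic or intronic was not determined, since exon positions were not used here.

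**Figure D3:**
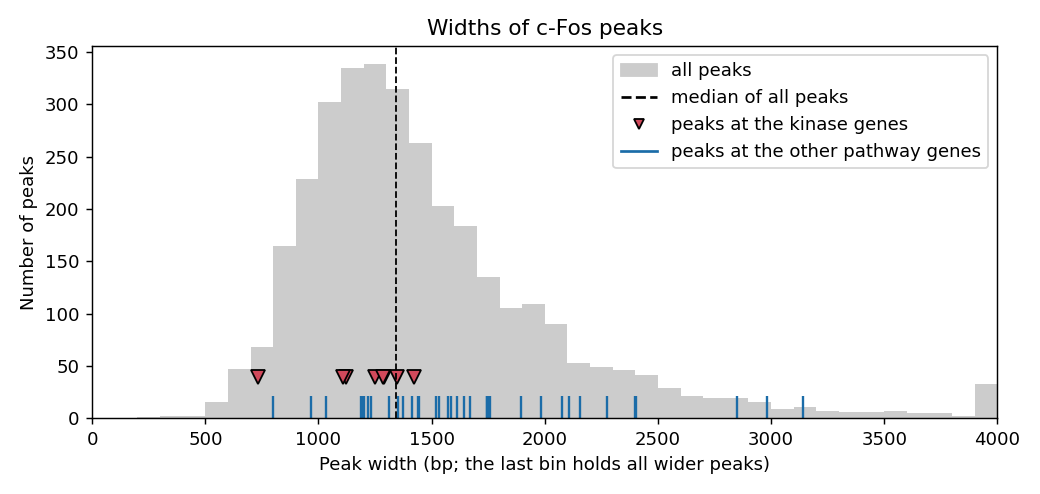
Histogram of the widths of all 3294 peaks (x axis, bp; y axis, number of peaks; 100 bp bins drawn in grey), with the median as a dashed line, the 8 peaks at the kinase genes as red triangles and the 36 peaks at other genes of the pathway as blue ticks. Most of the kinase peaks lie to the left of the median of 1341.5 bp, whereas 27 of the 36 others lie to the right of it.

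The kinases were then set beside 37 other genes of calcium/calmodulin signalling, grouped by role. A peak inside or within 100 kb was found for 14 of the 37 (37.8%, exact interval 22.5 to 55.2%), against 21.8% of all protein-coding genes. The background share lies just below that interval, which takes no account of gene length. This list was also chosen by name, with earlier results of these data known. The interval therefore describes the count and is not a test. The shares among genes of similar length added up to 11.2 genes, beside the 14 observed. No test was made of this difference. A peak inside the gene was found for 10 of the 37 (27.0%, exact interval 13.8 to 44.1%). The share was 5.52% for all protein-coding genes and 20.3% for those in the longest length class, which lies inside the interval. Together the 14 genes had 36 peaks with a median width of 1598.5 bp.

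Calcineurin is the calcium-dependent phosphatase that opposes the kinases. A peak was found for 4 of the 6 genes for calcineurin subunits and calcineurin regulators. The share was 21.8% for all protein-coding genes and 23.7 to 46.8% for genes of similar length to each of the 6. Ppp3ca, the catalytic alpha subunit of calcineurin (268 kb, chr3:136669714-136937727), had 7 peaks, 6 of them inside the gene. Of the 438 genes of similar length, Ppp3ca included, 0.685% had at least as many. With peaks within 500 bp of each other merged, 6 were counted. The 4 peaks of lowest coordinate lay within 11.6 kb, and the widest of them was 3142 bp (chr3:136834328-136837469). Ppp3cc, another catalytic subunit, had a single peak 41.8 kb away that was nearer to Slc39a14.

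Rcan1, a feedback inhibitor of calcineurin (74.2 kb, chr16:92391951-92466169, minus strand), had peaks at both of its listed transcription starts. Promoter windows were listed for 7 of the kinase genes and 26 of the 37 others, and among these Rcan1 was the only gene with a window overlapped by a peak. One peak, 2273 bp wide at chr16:92464991-92467263, had its midpoint 42 bp from the outer start, and the other, 2400 bp wide at chr16:92398887-92401286, had its midpoint 8.5 bp from the inner start. Both were wide, with 91.1 and 92.9% of all peaks as narrow or narrower. Both windows are printed because they are the promoter sequences of this pathway that lie under a c-Fos peak, with TGACGTCA and TGANTCA in capitals.
Rcan1 outer start, chr16:92466120-92466419, minus strand: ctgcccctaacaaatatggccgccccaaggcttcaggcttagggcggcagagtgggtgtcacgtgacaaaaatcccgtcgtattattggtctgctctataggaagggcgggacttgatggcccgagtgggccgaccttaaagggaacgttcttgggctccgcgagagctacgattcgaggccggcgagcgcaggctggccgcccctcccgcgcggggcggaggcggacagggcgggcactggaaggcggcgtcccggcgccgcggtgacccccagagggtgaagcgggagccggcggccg
Rcan1 inner start, chr16:92400029-92400328, minus strand: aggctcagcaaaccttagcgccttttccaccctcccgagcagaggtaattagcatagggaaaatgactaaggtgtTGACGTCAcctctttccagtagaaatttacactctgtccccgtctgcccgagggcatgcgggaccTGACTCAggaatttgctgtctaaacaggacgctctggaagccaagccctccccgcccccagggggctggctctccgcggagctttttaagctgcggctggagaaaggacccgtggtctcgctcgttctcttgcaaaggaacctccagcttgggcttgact
The outer window held neither motif. The inner window held TGACGTCA starting 175 bases before the transcription start and TGACTCA, a form of TGANTCA, starting 110 bases before it, without overlap between them. Both strands were searched. TGANTCA was found in 17.5% of the 338 windows of all genes that a peak overlapped and TGACGTCA in 7.40% of them. Of the 34 windows of the pathway genes, 5 held TGANTCA (14.7%), while only the 2 of Rcan1 were overlapped by a peak. Most pathway windows with TGANTCA were thus without a peak. A match of letters is a description and does not establish a binding site.

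Of the postsynaptic partners of CaMK2, Grin2b, an NMDA receptor subunit that anchors CaMK2 (460 kb), had 6 peaks, 5 of them inside, and 4.62% of the 238 genes of similar length had as many. Lrrc7, which encodes densin-180, a scaffold that binds CaMK2 (495 kb), had 4 peaks, all inside, and 10.5% of the 210 genes of similar length had as many. The CaMK2 inhibitor genes Camk2n1 and Camk2n2 had none. In this group of inhibitors and anchors, 2 of 5 genes had a peak, against 21.8% of all protein-coding genes. The share was 15.0 to 61.4% for genes of similar length to each of the 5, with 57.6% for Grin2b and 61.4% for Lrrc7. Of the 6 genes for calmodulin and its buffers, 3 had a peak, against the same 21.8% and 17.9 to 29.1% of genes of similar length. Calm3, which encodes calmodulin, had 1 peak at 40.2 kb that was nearer to Dact3, and Gap43, a calmodulin-binding growth cone protein, had 1 inside.

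Among the 9 other calmodulin-dependent or CaM kinase-like kinases, 2 had a peak, a share near the 21.8% of all protein-coding genes. Both encode doublecortin-like kinases. Dclk1 (297 kb) held 3 peaks inside and Dclk2 (135 kb) held 2, and 11.1 and 10.7% of genes of similar length had as many. The remaining 7 had none, among them Cask and Pnck on the X chromosome, where 4.57% of protein-coding genes had a peak. Of the 9 nuclear targets, 3 had a peak, against the same 21.8% and 18.2 to 46.4% of genes of similar length. Mef2c, a transcription factor of neuronal development and synapse number, had 3 peaks, of which 2 lay inside, and 3.31% of the 756 genes of similar length had as many. Hdac5, a histone deacetylase that CaM kinases drive out of the nucleus, had 2, of which 1 lay inside. The other, 15.3 kb from Hdac5, was nearer to Hrob. Atf1, a relative of CREB, had 1 inside. Neither catalytic subunit gene of AMPK, a target of CaMKK2, had a peak.

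**Figure D4:**
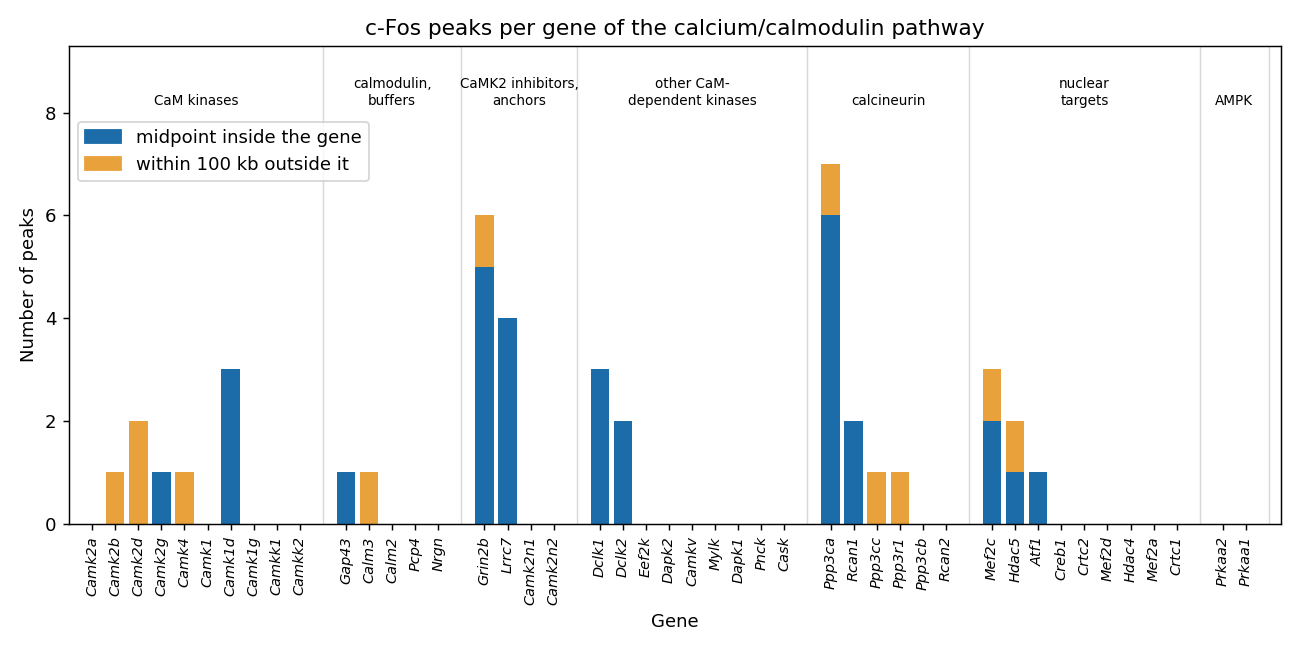
Number of c-Fos peaks (y axis) for each of the 10 kinase genes and 35 other genes of the pathway (x axis, grouped by role), with peaks inside the gene in blue and peaks within 100 kb outside it in orange. Ppp3ca (7), Grin2b (6) and Lrrc7 (4) carry more peaks than any kinase gene of the set, of which Camk1d has the most (3).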

How the data were processed

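Peaks came from 1 deposited list of chromosome, start and end, without header, score or height, and were taken to stand for all 3 c-Fos samples after kainic acid. The submitters' processing notes name SEACR 1.1, bedtools 2.27.1, Bowtie2 2.2.9 and Trimmomatic 0.36 and the builds mm10 and sacCer3. Settings, and the way replicates were combined, are not given in those sources. Of 3295 peaks, 1 on an unplaced sequence was left out. Gene positions and promoter windows came from RefSeq tables of GRCm38.p6; 340 genes with starts below 3000000 were left out as misplaced. All 10 members and 37 pathway genes matched by symbol. Members and lists were chosen with earlier results of these data known.

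Peak midpoints were linked to protein-coding genes in Python 3.11.15 with pandas 2.3.3 and NumPy 2.4.6; binomial intervals came from SciPy 1.17.1 and cover counting over genes only, ignoring that neighbouring genes share peaks. The counting was tested on simulated peaks. Named were all members, the nearest gene of each of their peaks and up to 3 genes with most peaks per role, and further members of small groups after their values were seen. Promoter windows were not listed for chromosome 18. Alternatives were other windows, links, peak widths and merging. Of the pathway list, 2 genes enter the counts and are not reported here individually.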

Additional observations from a re-analysis of the deposited data

How the results depend on the processing

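No paired analysis was possible because peaks were deposited without values of single replicates; none could be left out. The 5 kinase genes with a peak became 2 with a window of 10 kb, 3 with 50 kb, 2 with the 1647 wider peaks only and 3 when only the nearest protein-coding gene counted; the corresponding peaks, 8 at 100 kb, were 4, 5, 2 and 5. The smaller windows, the stricter link and the shorter peak list give lower counts by construction, also for all protein-coding genes (7.55, 14.0, 12.6 and 8.63% in the same order, and 34.4% at 200 kb). With the wider peaks, kinase genes with a peak inside fell from 2 to 1 and the median distance to the nearest peak rose from 182 to 351 kb. Camk1d kept a peak under every alternative run, but only 1 of its 3 with the wider peaks. That peak, of 1349 bp, was barely wider than the median of 1341.5 bp. Camk2a, Camk1, Camk1g, Camkk1 and Camkk2 had no peak under any alternative. The pathway genes with a peak numbered 10 to 21. Peaks weaker than the unknown threshold of the list are missing from all counts.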
